A study of Mus musculus with 6 samples.

Results

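Granzyme A (Gzma), granzyme B (Gzmb), granzyme C (Gzmc) and perforin (Prf1) are the killing proteins of natural killer (NK) cell granules, and their transcripts were examined in splenic NK cells cultured with oleic acid (OA). The members were taken by gene symbol from the deposited table, which held all 4 of them among 559 genes. NK cells purified from the spleens of C57BL/6 mice were either left without OA or given 0.2 mM OA, a monounsaturated fatty acid, and collected at 36 h. RNA was sequenced from 3 control and 3 OA libraries. The labels state that the treatment was done a single time, which may mean a single experiment or a single dose. The labels give no age, sex or number of mice and do not say whether replicates came from separate mice or cultures, so p-values measure the spread between these libraries, which may be technical. The deposited levels are TPM, that is, a length-corrected share of each library that keeps no read numbers.

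Perforin is released from granules onto the target cell and forms pores in its membrane, through which granzymes enter. Granzymes are serine proteases: granzyme B cuts after aspartate and activates caspases, granzyme A cuts after basic residues, and granzyme C is a rodent granzyme made by activated killer cells. Resting mouse NK cells are known to hold abundant granzyme and perforin transcripts but little granzyme B and perforin protein, and cytokine activation raises the protein. Transcript levels therefore do not give protein levels, which were not analysed here.

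The members lie on 3 chromosomes of GRCm38, the mouse build also called mm10. In RefSeq, Gzma spans chr13:113093824-113100981 on the minus strand, Gzmb spans chr14:56258836-56262334 and Gzmc spans chr14:56231397-56241647, both on the minus strand, and Prf1 spans chr10:61297751-61304684 on the plus strand. In the GENCODE annotation, Gzmb and Gzmc lie 24181 bases apart, with 2 other GENCODE genes between them. Gzmd, Gzme, Gzmf and Gzmg lie near them. This group was fixed by name and may not hold every granzyme gene of the region. No other GENCODE gene overlapped any of the 4 gene bodies as GENCODE draws them, on either strand. The RefSeq span of Gzmc reaches further, and overlap with the RefSeq spans was not checked. Only Gzmb and Gzmc of this chromosome 14 group were in the deposited table.

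The sequence just upstream of each start site is shown because the 4 transcripts were lower together. Gzma and Prf1 lie on other chromosomes than Gzmb and Gzmc. Shared control was not tested. Windows were searched over 250 bases before the RefSeq start, on both strands, for 7 motifs. The AP-1 motif was searched as TGANTCA and the CRE motif as TGACGT. The RUNX motif was searched as TGTGGT and the ETS motif as CAGGAA. The STAT motif was searched as TTCNNNGAA, the T-box motif as GGTGTGA and the TATA box as TATAAA. The letters were chosen with the member sequences known, and capitals mark every match. All sequences are from RefSeq on GRCm38.p6, read 5′ to 3′ on the strand of the gene. They cover chr13:113100982-113101231 for Gzma, chr14:56262335-56262584 for Gzmb and chr14:56234658-56234907 for Gzmc. For Prf1 they cover chr10:61297586-61297750, which stops 86 bases before the start site because another RefSeq transcript begins there.
Gzma upstream: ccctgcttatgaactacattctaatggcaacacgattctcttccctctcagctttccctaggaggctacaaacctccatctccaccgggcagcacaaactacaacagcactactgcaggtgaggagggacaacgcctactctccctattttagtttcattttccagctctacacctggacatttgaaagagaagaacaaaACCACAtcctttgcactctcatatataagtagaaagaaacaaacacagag
Gzmb upstream: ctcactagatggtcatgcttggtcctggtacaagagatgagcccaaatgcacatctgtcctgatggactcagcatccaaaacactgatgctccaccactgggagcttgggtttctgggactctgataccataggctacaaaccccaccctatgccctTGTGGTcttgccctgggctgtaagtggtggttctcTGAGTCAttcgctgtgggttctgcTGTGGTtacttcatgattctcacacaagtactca
Gzmc upstream: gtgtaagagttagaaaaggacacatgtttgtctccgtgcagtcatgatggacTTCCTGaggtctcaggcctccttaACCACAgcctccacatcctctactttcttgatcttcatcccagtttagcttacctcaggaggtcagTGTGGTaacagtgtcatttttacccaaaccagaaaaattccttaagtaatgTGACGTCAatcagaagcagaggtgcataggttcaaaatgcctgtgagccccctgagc
Prf1 upstream: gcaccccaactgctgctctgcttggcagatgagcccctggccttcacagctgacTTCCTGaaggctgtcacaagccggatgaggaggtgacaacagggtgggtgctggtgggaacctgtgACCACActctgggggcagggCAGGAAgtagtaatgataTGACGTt

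A RUNX match, the letters bound by the RUNX factors of lymphocytes, was present upstream of all 4 members, and in 14.0% of all 32851 RefSeq windows of the same length. It lay 50 to 45 bases before the start of Gzma and 34 to 29 before that of Gzmb, which held a second match at 93 to 88. Gzmc held RUNX matches at 174 to 169 and at 108 to 103, and Prf1 held 1 at 130 to 125. The AP-1 letters, found in 6.75% of all windows, were matched only in Gzmb among the members, 58 to 52 bases before the start. The CRE letters, found in 6.47% of all windows, were matched in Gzmc on both strands at overlapping positions (57 to 52 and 55 to 50) and in Prf1 at 92 to 87. ETS letters, found in 25.7% of all windows, occurred 1 time upstream of Gzmc and 2 times upstream of Prf1. The STAT, T-box and TATA letters had 0 matches in the 4 windows, which says only that these letters are not in them; they occurred in 7.02%, 3.33% and 12.4% of all windows. The GENCODE start of Gzmb lies 74 bases downstream of the RefSeq start, so distances for that gene depend on the annotation. The RefSeq span of Gzmc reaches upstream of the window shown. A match to letters is not a measured binding site.

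**Figure D1:**
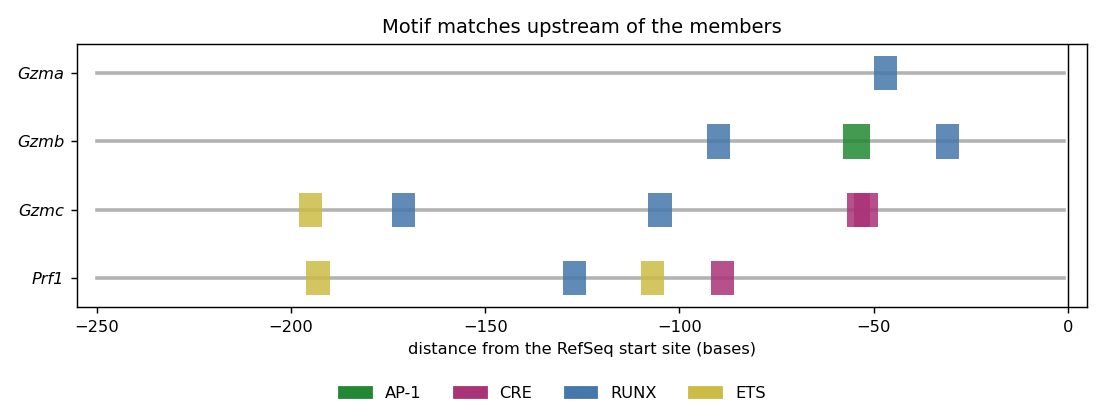
Positions of motif matches in the 250 bases before the RefSeq start site of each member; the x axis is the distance from the start in bases and each coloured block is a match. RUNX matches are present in all 4 windows, and the AP-1 match only in that of Gzmb.

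The 3 granzymes also differ in how alike their coding sequences are, which bears on how reads can be told apart. The coding sequences of Gzmb and Gzmc were 76.7% identical in a global alignment, and Gzma was 56.8% identical to Gzmb and 56.3% to Gzmc. Gzmc was 73.1% to 74.6% identical to Gzmd, Gzme, Gzmf and Gzmg. Of 845 stretches of 50 bases in the Gzmc transcript, 35 (4.14%) were also present in a transcript of another gene, Gzme, Gzmg or Gzmd, and 0 of 795 stretches of 100 bases were. For Gzma, Gzmb and Prf1, 0 stretches of 50 bases were shared with any other GENCODE gene. The labels name no read length, so the Gzmc level could include some reads of these neighbours, and its values are uncertain to that extent.

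All 4 members were lower after OA, in every OA library against every control library. Summed over the members, the transcripts took 0.375% of the TPM scale in control and 0.243% after OA, with 3409.54 to 4380.98 TPM in the control libraries and 2020.45 to 2733.6 TPM in the OA libraries. Granzyme transcripts were lower by 32.3% to 39.3%, and the perforin transcript by 22.2%. The order of level was Gzmb, Gzmc, Gzma, Prf1 in each of the 6 libraries. Over libraries, the ranges of neighbours in this order did not overlap in control, whereas in OA the lowest Gzmc value (586.79 TPM) lay below the highest Gzma value (611.56 TPM).

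Gzmb, which encodes the caspase-activating granzyme, stood at 1433.02, 1430.18 and 1790.82 TPM in control replicates 1, 2 and 3. In OA replicates 1, 2 and 3 it stood at 1176.06, 1080.2 and 892.43 TPM. Control replicate 3 was the highest library and OA replicate 3 the lowest, and the lowest control was 1.22 times the highest OA library. In limma, a linear model fitted here to log2(TPM + 1) of all 559 genes, the difference was −0.56 on the log2 scale (SE 0.144, 95% interval −0.93 to −0.20), with a Benjamini-Hochberg adjusted p = 0.0285.

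Gzmc stood at 1110.5, 1089.67 and 1413.18 TPM in control and at 838.95, 766.46 and 586.79 TPM after OA. It had the widest gap between groups of the 4 members, the lowest control being 1.299 times the highest OA library. Its difference was −0.73 on the log2 scale (SE 0.175, 95% interval −1.17 to −0.28, limma adjusted p = 0.0279), and 12 genes of the table had a larger fall.

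Gzma, the granzyme with trypsin-like cutting, stood at 790.41, 764.01 and 1027.69 TPM in control and at 611.56, 566.96 and 447.55 TPM after OA. The same libraries were at the ends of the range as for Gzmb and Gzmc. The difference was −0.67 on the log2 scale (SE 0.171, 95% interval −1.10 to −0.23, limma adjusted p = 0.0285).

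Prf1 was the least abundant member, at 134.15, 125.68 and 149.29 TPM in control and at 107.03, 117.4 and 93.68 TPM after OA. Its groups came closest to each other, OA replicate 2 lying at 0.934 of control replicate 2, the lowest control library. The difference was −0.36 on the log2 scale (SE 0.110, 95% interval −0.64 to −0.08, limma adjusted p = 0.0348), and 92 genes of the table had a larger fall.

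**Figure D2:**
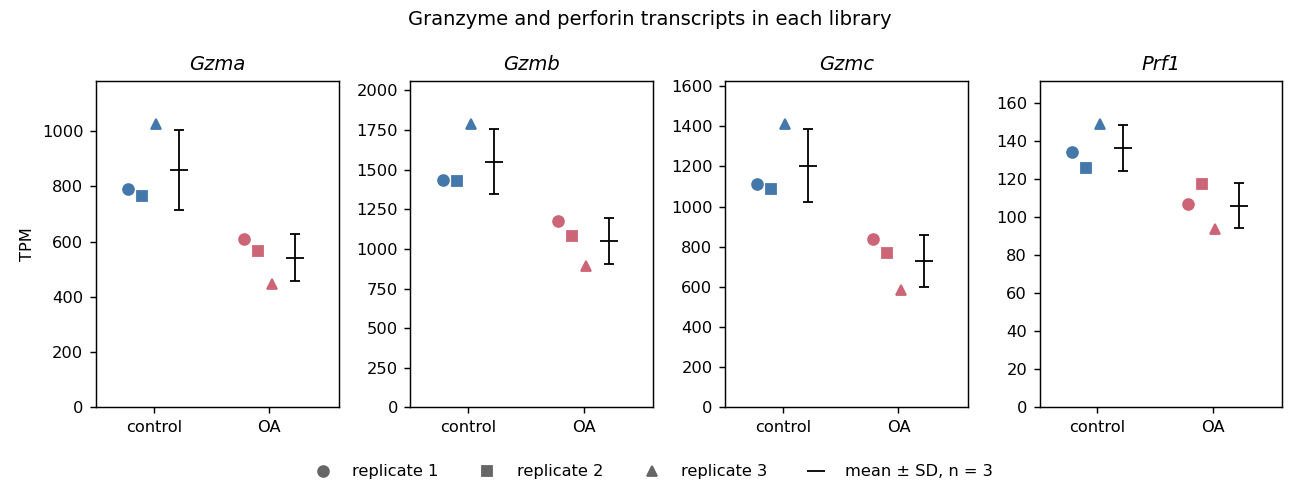
TPM of each member by group; symbols are the 3 replicates of each group and the bar is the mean with its SD (n = 3). Every OA library lies below every control library for each member, and the gap is smallest for Prf1.

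Among the 559 genes, limma called 224 (40.1%) lower and 201 higher in OA at adjusted p under 0.05 (82 lower and 162 higher with libraries scaled to equal medians). The groups did not overlap, with OA lower, for 271 (48.5%). All 4 members were among the 224 and among the 271, and 3 of them, without Prf1, among the 82. Their median log2 difference was −0.62, against 0.14 over the whole table. Each gene of the table had an authors' Q value under 0.05 for the same contrast, so the members had already been selected on this difference, and neither the counts nor the p-values are independent evidence of it. In the authors' deposited table, the log2 fold changes were −0.66 for Gzma, −0.56 for Gzmb, −0.72 for Gzmc and −0.36 for Prf1. The Q values in the authors' deposited table were 0.0161, 0.0128, 0.00776 and 0.00269 in the same order, so that Prf1 had the smallest fold change and the smallest Q value of the 4.

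Leaving out a single library changed the calls, for the members and for the whole table. No member passed without control replicate 1 (adjusted p 0.0662 to 0.0829, limma), without control replicate 2 (0.0514 to 0.0567), without control replicate 3 (0.060 to 0.0864) or without OA replicate 2 (0.0793), although at unadjusted p under 0.05 the members numbered 3, 4, 3 and 4 in these fits. The sign could not change, since the groups do not overlap. The 3 granzymes passed without OA replicate 1 (highest p over the members 0.0620, for Prf1), and likewise without OA replicate 3 (0.0545, for Prf1, limma adjusted). Without replicate 3 of both groups the log2 differences were −0.40 for Gzma, −0.34 for Gzmb, −0.46 for Gzmc and −0.21 for Prf1, and the 3 granzymes passed (adjusted p = 0.0250, limma) while Prf1 did not (0.0603). Scaling the libraries to equal medians left the 3 granzymes called and Prf1 not, at adjusted p = 0.0570 (limma).

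Replicate 3 of each group stood apart, in opposite directions. In control replicate 3 the members were 1.11 to 1.35 times their level in the other control libraries. In OA replicate 3 they were 0.699 to 0.875 of their level in the other OA libraries. Against the mean of replicates 1 and 2, control replicate 3 was higher by 0.40 for Gzma, 0.32 for Gzmb, 0.36 for Gzmc and 0.20 for Prf1 on the log2(TPM + 1) scale, where the median over the table was 0.02. OA replicate 3 was lower by a log2 difference of −0.40, −0.34, −0.45 and −0.26 in the same order, against a table median of −0.05. The 13 listed heart muscle genes summed to 6287.63 TPM in OA replicate 3, 460.74 TPM in OA replicate 2 and 32.27 to 55.34 TPM in the other 4 libraries; of these genes only Nppa was listed at 0, in control replicate 2. The part of this material in the member values was not tested, and without OA replicate 3 the log2 differences were −0.53 for Gzma, −0.45 for Gzmb, −0.58 for Gzmc and −0.28 for Prf1.

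Ratios within a library do not depend on that library's scale, and they show whether the members kept their proportions. The Gzmb to Gzmc ratio was 1.29, 1.31 and 1.27 in control and 1.402, 1.41 and 1.52 after OA. Every OA library was above every control library. The Gzmb to Gzma ratio was 1.81, 1.87 and 1.74 in control and 1.92, 1.91 and 1.99 after OA, again without overlap. The Gzma to Gzmc ratio was the steadiest between groups, at 0.712, 0.701 and 0.727 in control and 0.729, 0.740 and 0.763 after OA; its mean changed 1.04-fold and the closest libraries of the groups differed by little more than rounding. Within a group these 3 ratios had coefficients of variation of 1.75% to 4.62%, against 13.4% to 17.8% for the granzyme levels themselves, and the granzymes of a library were high or low together.

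Ratios to perforin were less even between libraries. The Gzmc to Prf1 ratio was 8.28, 8.67 and 9.47 in control and 7.84, 6.53 and 6.26 after OA. The Gzma to Prf1 ratio was 5.89, 6.08 and 6.88 in control and 5.71, 4.83 and 4.78 after OA. Neither ratio overlapped between groups, although OA replicate 1 lay just under the lowest control in each. The Gzmb to Prf1 ratio did overlap, at 10.7, 11.4 and 12.0 in control and 11.0, 9.20 and 9.53 after OA. In OA replicate 2, Prf1 was 1.10 times its level in OA replicate 1, whereas the granzymes there were 0.914 to 0.927 of theirs.

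Differences in log2 ratio between OA and control were 0.16 for Gzmb to Gzmc, 0.10 for Gzmb to Gzma, 0.06 for Gzma to Gzmc, −0.36 for Gzmc to Prf1, −0.30 for Gzma to Prf1 and −0.20 for Gzmb to Prf1. Without replicate 3 of both groups, Gzmb to Gzma was at 0.06, Gzma to Prf1 at −0.19 and Gzmb to Prf1 at −0.13 on the same scale. In an exact two-sided permutation test over the 6 libraries, p was 0.1 for each of the 5 ratios without overlap and 0.2 for Gzmb to Prf1. After Benjamini-Hochberg adjustment over the 6 ratios the exact permutation values were 0.12 and 0.2. The smallest p that 3 against 3 libraries allow is 0.1, so no ratio could pass 0.05, and unequal change among the members was not established.

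**Figure D3:**
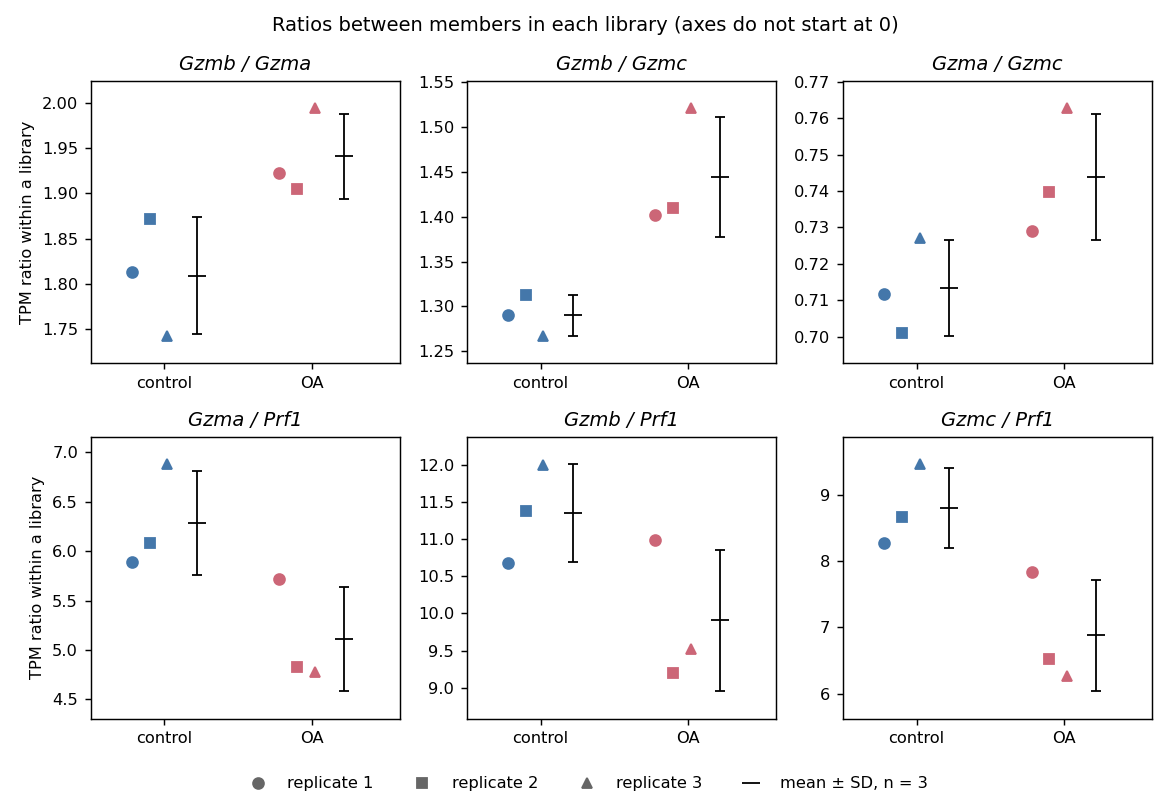
Ratio of TPM between each pair of members within each library; symbols are replicates, the bar is the mean with its SD (n = 3), and the y axes do not start at 0. The ratios among granzymes are higher in OA by 1.04-fold to 1.12-fold, and the ratios of granzymes to Prf1 are lower, with overlap for Gzmb to Prf1.

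Expressed as shares of the 4 members' summed TPM, Gzmb went from 41.4% ± 0.537 to 43.3% ± 0.781 (SD, n = 3) and Gzmc went from 32.1% ± 0.157 to 30.0% ± 0.858. Prf1 went from 3.65% ± 0.232 to 4.40% ± 0.417, and Gzma from 22.9% ± 0.531 to 22.3% ± 0.137. No share moved by more than a few percentage points, a measure that shows little for the small Prf1 share. The Prf1 and Gzmb shares were higher in every OA library than in every control library. For Prf1 the closest were OA replicate 1 (3.92%) and control replicate 1 (3.87%). The Gzmc and Gzma shares were lower in every OA library, for Gzma by little more than rounding between the closest libraries.

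In RNA from a bulk sample, fewer cells of a type and less RNA per cell cannot be told apart. Listed receptor genes that mark NK cells were therefore set beside the members. Of 25 such genes fixed for comparison, 9 were in the table and all 9 fell (limma), among them Ncr1 (the activating receptor NKp46), Klrd1 (CD94), Cd96 and Klri2. Over the whole table, limma called 224 of 559 genes (40.1%) lower. Their summed level was 866.61, 844.94 and 952.54 TPM in control and 735.04, 682.65 and 577.71 TPM after OA, a mean ratio of 0.749. The libraries at the ends of this range were those at the ends for the granzymes. No listed NK marker was at 0 in any library.

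Divided by this marker sum, the granzymes were lower in every OA library and perforin overlapped between groups. Gzmc per marker TPM was 1.28, 1.29 and 1.48 in control and 1.14, 1.12 and 1.02 after OA, a log2 difference of −0.30. Gzma gave 0.912, 0.904 and 1.08 in control and 0.832, 0.831 and 0.775 after OA, a log2 difference of −0.24. Gzmb came closer, with 1.65, 1.69 and 1.88 in control and 1.60, 1.58 and 1.54 after OA, a log2 difference of −0.14. Without control replicate 3 the log2 differences were −0.24 for Gzmc, −0.16 for Gzma and −0.09 for Gzmb, and without replicate 3 of both groups they were −0.18, −0.13 and −0.07. For these 3 the groups did not overlap (exact permutation p = 0.1, the smallest possible, and 0.133 adjusted over the 4 members). Prf1 gave 0.155, 0.149 and 0.157 in control and 0.146, 0.172 and 0.162 after OA, so the groups overlapped (log2 difference 0.06, exact permutation p = 0.5). The markers entered only because they were listed, that is, differed between the groups, so the sum is not a fixed measure of NK cell content.

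**Figure D4:**
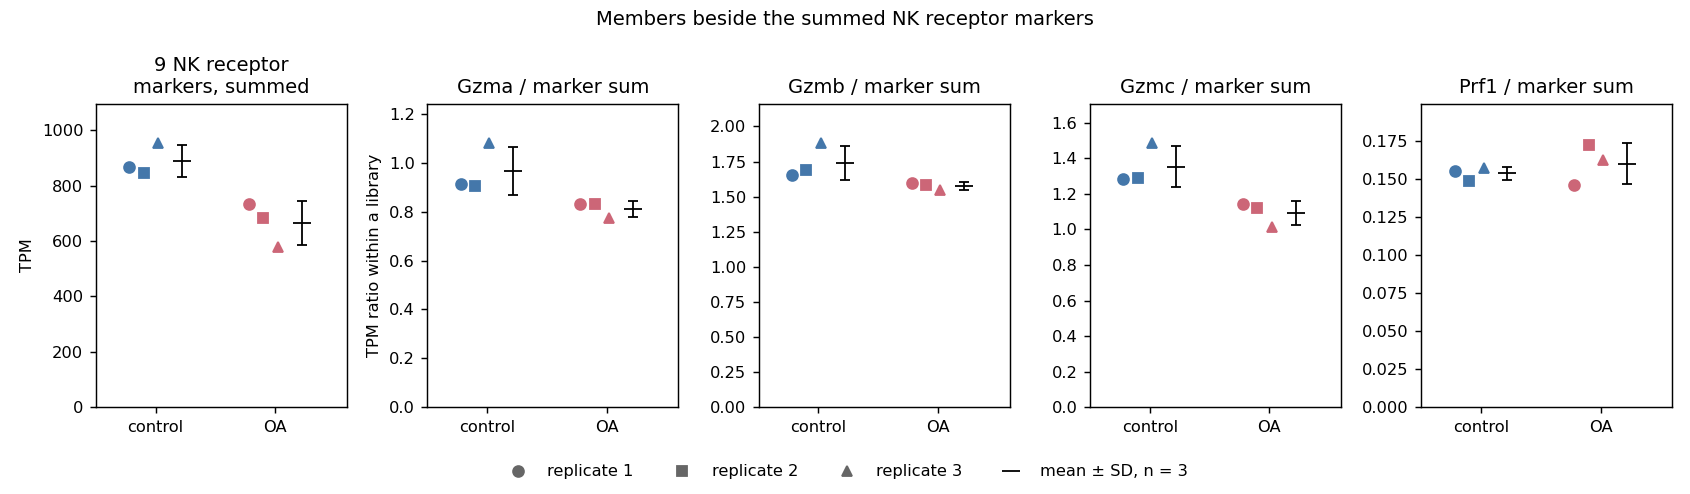
Summed TPM of 9 listed NK receptor markers and each member divided by that sum, by group; symbols are replicates and the bar is the mean with its SD (n = 3). The granzyme ratios are lower in every OA library, and the Prf1 ratio overlaps between groups.

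Markers of other cells moved in the same libraries. The counts below stand beside 224 genes (40.1%) called lower and 201 called higher among all 559 (limma). Every listed gene had been selected on the group difference, so these counts describe the table. The 6 listed B cell markers summed to 323.1 to 402.69 TPM in control and 503.08 to 592.25 TPM after OA; 5 rose and 1 did not pass, with Cd79a (B cell receptor chain) from 112 ± 12.3 to 153 ± 9.88 TPM (SD, n = 3). The 8 listed myeloid markers of 23 summed to 1566.97 to 1813.27 TPM in control and 2040.54 to 2143.76 TPM after OA. Of these, 6 rose and 2 fell. Cd14 (a monocyte receptor for endotoxin) went from 447 ± 61.2 to 655 ± 35.8 TPM. The 2 that fell were Ly6c2, from 139 ± 4.12 to 91.3 ± 15.3 TPM, and Ccr2, from 132 ± 10.6 to 110.5 ± 8.02 TPM. Control replicate 3, highest for the members, had the lowest B cell and myeloid sums, and OA replicate 3, lowest for the members, had the highest. The 2 listed neutrophil markers of 12, Mmp8 and Mmp9, both rose. They summed to 347.18 to 462.42 TPM in control and 547.64 to 602.68 TPM after OA. The neutrophil genes S100a8, S100a9 and Ly6g were not in the table. Granzyme transcripts are also made by T cells and mast cells. The 2 listed T cell markers of 16, Cd28 and Icos, both fell, with sums of 259.27 to 291.49 and 193.89 to 239.7 TPM, and the 3 listed mast cell and basophil markers of 14, Mcpt8, Hdc and Kit, fell, with sums of 239.98 to 255.33 and 174.06 to 205.98 TPM. Defining T cell genes such as Cd3e and Cd4 and the mast cell gene Cpa3 were not in the table. None of the listed markers of these 5 cell types was at 0 in any library, and their part in the member values was not tested.

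Other listed genes of the killing pathway went in both directions. None of the 7 other granzymes fixed for comparison (Gzmd, Gzme, Gzmf, Gzmg, Gzmk, Gzmm and Gzmn) was listed. Of 27 genes for granule assembly, trafficking and self-protection, the table held 8: 5 fell, 1 rose, and 2 missed the threshold, with a median log2 difference of −0.24. Nkg7, a granule membrane protein needed for degranulation, went from 579 ± 22.4 to 448 ± 47.8 TPM (log2 −0.37, adjusted p = 0.0282, limma). The cathepsin genes divided: Ctsw, a cathepsin of killer lymphocytes, went from 157 ± 9.22 to 124 ± 12.3 TPM and Ctsh from 249 ± 21.4 to 202 ± 10.4 TPM. Ctsl, a lysosomal protease that macrophages also express, rose from 76.3 ± 11.9 to 122 ± 16.8 TPM. Which cells gave the transcripts of this list was not tested, for genes that fell or rose. Ctsc, whose product removes the propeptide and so activates granzymes, stood at 140.17 ± 13.2 in control and 122 ± 10.4 TPM after OA and did not pass (adjusted p = 0.117, limma). Lamp1, which also missed the threshold, was higher in every OA library than in every control library (log2 0.16, limma adjusted p = 0.0552). Serpinb9, the inhibitor that protects killer cells from their own granzyme B, fell from 554 ± 24.6 to 473 ± 39.2 TPM (log2 −0.23, against −0.56 for Gzmb; the difference between them was not tested). Rab27a, a GTPase that docks granules at the membrane, fell by 0.26 on the log2 scale.

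Of 4 death ligands and cytotoxic cytokines, 3 were listed. Lta (lymphotoxin alpha) changed by −0.66 on the log2 scale, beside −0.67 for Gzma, and Tnfsf10 (TRAIL) by −0.50, and both fell. Tnf, which myeloid cells also make, rose from 551 ± 27.6 to 627 ± 24.1 TPM. The source cells of these 3 transcripts were not tested.

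Among 29 transcription factors of killer lymphocytes, the table held 7: 5 fell, 0 rose, and 2 missed the threshold, with a median log2 difference of −0.20. Of the 2 that missed, Ets1 was lower (log2 −0.20). Junb was higher in every OA library than in every control library (log2 0.14, limma adjusted p = 0.0514). Eomes, a T-box factor that drives Prf1 and Gzmb in killer lymphocytes, fell from 45.6 ± 4.77 to 34.9 ± 3.58 TPM (log2 −0.37, adjusted p = 0.0336, limma). Irf1, Ikzf3 and Myc also fell, with log2 differences of −0.29, −0.20 and −0.22. Of 17 genes of the IL-12, IL-18, IL-2 and IL-15 inputs, cytokines known to raise granzyme and perforin expression, the table held 12. Of these, 10 fell, 0 rose, and 2 missed the threshold, with a median of −0.33. Of the 2 that missed, Il2rg was lower (log2 −0.17). Socs3 was higher in every OA library than in every control library (log2 0.12, limma adjusted p = 0.0627). Il2ra, the high-affinity IL-2 receptor chain, went from 309.6 ± 8.5 to 224 ± 31.7 TPM, and Il12rb1 from 185 ± 12.9 to 145 ± 10.3 TPM. Pim2 and Socs1, kinase and feedback genes induced by these cytokines, fell, with log2 differences of −0.49 and −0.26. These lists were chosen with results of these libraries known, and the genes in them passed the authors' threshold, so their counts describe the table and do not test a pathway. Beside these counts, limma called 40.1% of all 559 genes lower. Without control replicate 1 or without OA replicate 2, limma called 0 genes of the whole table, and 339 and 327 genes had an unadjusted p under 0.05.

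**Figure D5:**
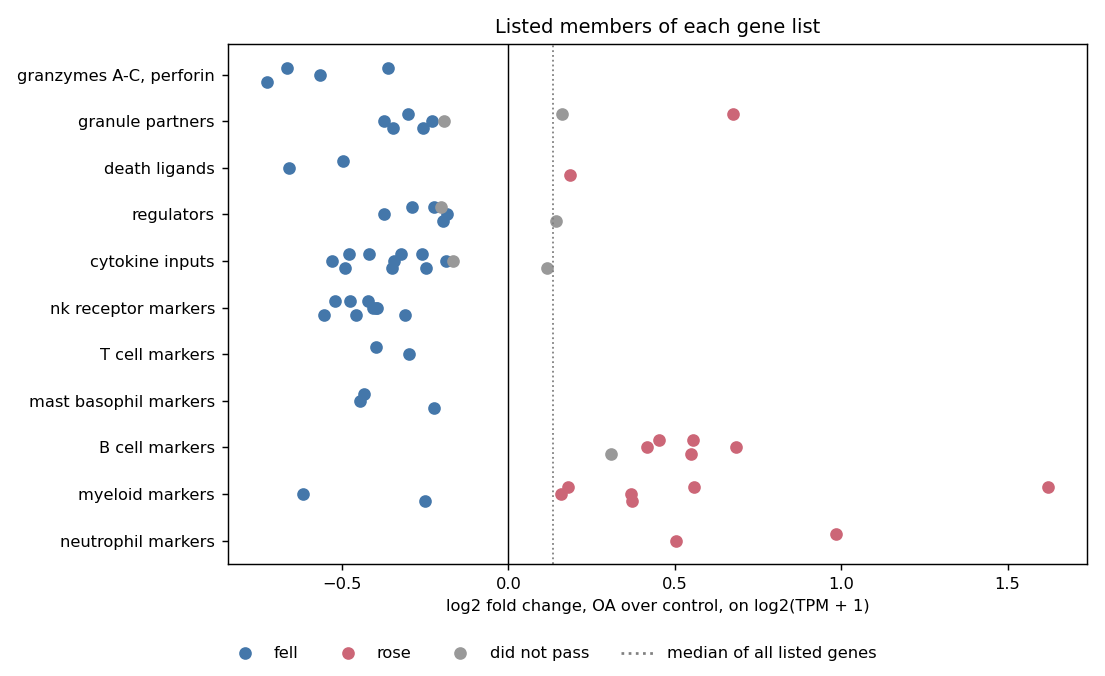
log2 difference between OA and control on log2(TPM + 1) for the members and every listed gene of 10 lists, without heart muscle; blue genes fell, red genes rose and grey genes did not pass in limma, and the dotted line is the median of the 559 listed genes. The 3 granzymes lie between −0.73 and −0.56 and Prf1 at −0.36, and NK receptor markers are all lower. All listed B cell markers are higher, as are the 2 neutrophil markers listed of 12.

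Profiles most alike to each member were ranked by the root mean square difference of log2(TPM + 1), centred on the control mean, over the 6 libraries. For Gzma the nearest was Gzmc (0.049), followed by C1s1, Fam19a3, Gzmb and Klrb1f. For Gzmc it was Gzma, followed by Ifng (0.062), Fam19a3, Batf2 and Calhm6. Ifng, which encodes interferon gamma, had 0.579 of its control mean after OA, against 0.607 for Gzmc. Gzmb was nearest to Klrb1f (0.037), an NK cell lectin-like receptor gene, followed by Il13, Il12rb2, Tnfrsf8 and Ly6i. Prf1 was nearest to Clspn (0.038), a DNA replication checkpoint gene, followed by Ifi211, Tagap, Pvrig and Gm12250, and no granzyme was among its 5. The distance from Prf1 was 0.17 to Gzmb, 0.24 to Gzma and 0.28 to Gzmc, whereas the 3 granzymes lay 0.049 to 0.121 from each other. The median distance of all listed genes was 0.385 from Prf1 and 0.527 to 0.645 from the granzymes. Likeness over 6 libraries is a description and says nothing of shared control.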

How the data were processed

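RNA-seq of 3 control and 3 OA libraries of splenic NK cells was available as a table of 559 genes. TPM per library, mean TPM per group, log2 fold change, P value and Q value were computed by the authors, per the file headers. Per the submitters' processing notes, Bowtie2, RSEM 1.3.1, DESeq2 1.4.5 and build mm10 were used, without roles; annotation, filters and read length are not given in the sources available. The table holds genes with an authors' Q value up to 0.0499, so group differences in it are larger than in unselected genes. TPM values deposited by the authors keep no depth, and no counting error can be given.

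Columns were matched to samples by title and grouped by the treatment label. limma 3.58.1 (R 4.3.3) was run on log2(TPM + 1) of all 559 genes without filter or covariate. Benjamini-Hochberg adjustment was over all of them, two-sided at 0.05. The fit was also run on simulated data with planted changes larger than those of the members and independent noise. That run does not test the calls in these selected genes. Fold changes on the log2(TPM + 1) scale understate changes of low genes. Ratios within libraries were compared by exact permutation tests (scipy 1.17.1). Alternatives were pseudocounts of 0.1 and 5, a mean of at least 10 TPM, equal medians, the replicate block, a trended robust prior and leaving out each library; leaving out replicate 3 of both groups was added after the data were seen. Named genes were the members, up to 4 listed genes per list with the smallest adjusted p, and the 5 most alike profiles per member. Rab27a, Ctsc, Lamp1, Serpinb9, Ccr2, Ets1, Junb, Il2rg and Socs3 were added after their values were seen. The members and lists were chosen with earlier results of these data known. Sequences came from RefSeq (GRCm38.p6, 4 of 4 members matched by identifier) and GENCODE M21 transcripts. Python 3.11.15, pandas 2.3.3 and matplotlib 3.10.9 were used.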

Additional observations from a re-analysis of the deposited data

How the results depend on the processing

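All 4 members were lower in OA under every alternative run. Groups without overlap fix this direction, except with equal medians, where each library is rescaled. Those medians are over the 559 listed genes, which were selected on the group difference. Pseudocounts of 0.1 and 5, the level filter and the trended robust prior changed no call, and the members' adjusted p ranged from 0.0149 to 0.0367 over them (limma). With equal medians Prf1 was not called (log2 −0.37), and the table had 82 lower and 162 higher calls against 224 and 201. Leaving out 1 library left 0 to 187 lower and 0 to 177 higher calls. Leaving out each library in turn, the log2 difference ranged from −0.76 to −0.53 for Gzma, −0.65 to −0.45 for Gzmb, −0.83 to −0.58 for Gzmc and −0.44 to −0.28 for Prf1, and without replicate 3 of both groups Prf1 was at −0.21; the cause was not tested, and an arm of 2 libraries is assumed to vary like the other. With the replicate number as a block (replicate block), the differences stayed at −0.67, −0.56, −0.73 and −0.36 and no member was called (adjusted p 0.115 to 0.125, limma), with 0 genes of the table called (238 at an unadjusted p under 0.05) and 3 members at an unadjusted p under 0.05. The labels do not say whether the numbers pair the samples. Over the 559 genes, deviations of same-numbered libraries correlated at 0.33, −0.11 and −0.08. Only replicate 1 correlated best with its own number. With 3 libraries a group these correlations cannot decide whether samples were paired, so the fit with the block is not set aside. No ratio changed sign. Relative to the NK marker sum, with 1 library left out or replicate 3 of both groups, the log2 difference between OA and control was −0.29 to −0.13 for Gzma, −0.18 to −0.07 for Gzmb, −0.34 to −0.18 for Gzmc and 0.00 to 0.12 for Prf1. TPM gives no read numbers, so depth sets no stated limit here, and 3 libraries a group limit exact tests to p = 0.1.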
